A study of Homo sapiens with 26 samples.

Results

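The integrated stress response and the unfolded protein response are described here through 37 genes, chosen by symbol for their known place in these pathways, among 19128 genes in the knockout tables and 19117 in the table of parental lines. All 37 were listed in every table, and all 37 passed the filter on low values in both comparisons. The material was 26 RNA libraries of cell lines of human small cell lung cancer. In the knockout experiment, NCI-H1048 and NCI-H211 (harvested on day 4 after lentiviral infection) and COR-L311 and NCI-H526 (day 5) received either of 2 guide RNAs against POU2F3 (sgPOU2F3) or 1 control guide (sgNeg), 12 libraries. POU2F3 encodes a transcription factor of tuft cells, chemosensory cells of epithelia, and marks a tuft cell-like variant of this cancer. The other 14 libraries were 1 from each of 14 uninfected parental lines growing exponentially, those 4 lines and 10 others (DMS114, DMS79, NCI-H128, NCI-H146, NCI-H446, NCI-H510, NCI-H524, NCI-H69, NCI-H82 and NCI-H889). NCI-H1048 was kept in HITES, a hormone-supplemented medium, NCI-H128 in RPMI with 20% serum, and the rest in RPMI with 10% serum or in HITES. The deposited knockout tables hold 1 value per gene and line for sgPOU2F3, in which the 2 guides are combined, and 1 for sgNeg, so there is no spread within a line. The unit of replication is the line.

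Cells answer unfolded protein in the endoplasmic reticulum (ER) through 3 sensors, the kinase PERK (EIF2AK3), the kinase and RNase IRE1 (ERN1) and the membrane-bound factor ATF6. PERK, like the kinases that sense missing amino acids, haem or viral RNA, phosphorylates the translation factor eIF2alpha, which slows protein synthesis in general and favours translation of ATF4. ATF4 induces further factors, enzymes of amino acid synthesis and tRNA synthetases, whereas ATF6 and the XBP1 made after IRE1 splicing induce ER chaperones and the machinery that exports misfolded proteins for degradation. The values here are RNA levels per gene, so they show neither eIF2alpha phosphorylation nor XBP1 splicing. Below, the PERK-ATF4 arm means the 23 genes for the eIF2alpha kinase, its factors and feedback, the stress effectors, the amino acid and one-carbon enzymes and the tRNA synthetases, and the ER chaperones are a group of 9 genes. The 3 ER sensors and factors and 2 genes of ER-associated degradation complete the list. The PERK-ATF4 name is only a label for these genes. Which eIF2alpha kinase was active, PERK or another, was not tested.

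POU2F3 itself, in FPKM (fragments per kilobase of transcript, scaled to mapped fragments), stood at 204 (NCI-H526), 21.3 (NCI-H211), 60.8 (NCI-H1048) and 218 (COR-L311) with sgPOU2F3, against 501, 307, 198 and 272 in the same lines with sgNeg. It was lower with sgPOU2F3 in 4 of 4 lines, by most in NCI-H211 and by least in COR-L311. The 4 log2 ratios averaged -1.77 ± 1.46 (SD), with a limma adjusted p of 0.397. A guide can disrupt a protein without lowering its RNA, so these levels are not a measure of how many cells lost it. The epithelial marker EPCAM stood between 99.4 and 500.3 FPKM with sgPOU2F3 and between 113 and 533 FPKM with sgNeg, and PTPRC and PECAM1, which mark blood and endothelial cells, were at most 0.0682 FPKM in every knockout column, while COL1A1, of stroma, was at most 6.10 FPKM. In the parental table POU2F3 stood between 189 and 387 FPKM in the 4 knockout lines and between 0 and 0.608 FPKM in the 10 others. Estimated depth was 17.8 to 28.2 M fragments per combined sgPOU2F3 column, 9.33 to 15.5 M per sgNeg column and 9.77 to 30.9 M per parental library, where M stands for 1000000. In these bulk libraries, fewer cells making an RNA and less RNA per cell cannot be told apart.

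Promoter letters are shown for the element that ATF4 and its C/EBP partners are known to bind. Any part of this element in how the genes vary across lines, as described further on, was not tested. Windows of 300 bases (250 before and 50 after an annotated start) came from RefSeq on GRCh38.p14. A window was found for 33 of the 37 genes, by symbol or by synonym. AARS, WARS and NARS stand there as AARS1, WARS1 and NARS1. No window was found for PSPH, SHMT2, GARS and SARS. Each window was searched on both strands for the C/EBP-ATF response element (CARE, letters TGATGNAA) and the unfolded protein response element (UPRE, letters TGACGTGG). CARE was found in 6 of 33 genes (18.2%, against 4.46% of 27305 genes with a window), namely ATF3, CHAC1, ASNS, AARS, NARS and HERPUD1. The list was chosen for its known place in these pathways, so its larger share is not an independent result. UPRE was found in 0 of 33, against 0.927% of all genes. The ER stress elements ERSE and ERSE-II were searched too and are not reported here, so these counts do not say whether the chaperone promoters hold other stress elements. Such a match is a run of letters and not a measured binding site. The stretches below run 5′ to 3′ on the strand of the gene, with the matched letters in capitals, so that a match on the other strand appears as its reverse complement (TTNCATCA).
ASNS: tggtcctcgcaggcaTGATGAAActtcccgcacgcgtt
CHAC1: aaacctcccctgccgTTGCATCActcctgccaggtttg
AARS: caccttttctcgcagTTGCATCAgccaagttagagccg
HERPUD1: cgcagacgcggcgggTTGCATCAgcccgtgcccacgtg
The stretch of ASNS, asparagine synthetase, lies at chr7:97872454-97872491, minus strand, and that of CHAC1, a glutathione-degrading enzyme, at chr15:40953247-40953284, plus strand. The stretch of AARS, alanyl-tRNA synthetase, lies at chr16:70289671-70289708, minus strand, and that of HERPUD1, an ER membrane protein of the degradation machinery, at chr16:56931951-56931988, plus strand. Of the 6 genes with a match, 5 belong to the PERK-ATF4 arm and HERPUD1 to ER-associated degradation.

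The question of the knockout experiment, for these genes, is whether their RNA differs once POU2F3 is targeted. Across the 4 lines no gene of the list passed the threshold. At an adjusted p under 0.05 (limma on log2(FPKM + 1), line as a block, Benjamini-Hochberg over 12387 genes), 0 of 37 genes were higher, against 0.0161% of all genes tested, and 0 of 37 were lower, against 0.0%. At an unadjusted p under 0.05, 9 of 37 were past the line, against 11.8% of all genes. Of these, 6 were lower (ASNS, PSAT1, SHMT2, MTHFD2, GARS and STC2), against 7.08% of all genes, and 3 were higher (PPP1R15A, VLDLR and HERPUD1), against 4.67%. The count of 6 lower was 2 without COR-L311, 3 without NCI-H1048, 2 without a filter and 3 after quantile normalization, and the count of 3 higher was 6 without COR-L311 and 1 without NCI-H211 or NCI-H526. The log2 ratio had the same sign in 4 of 4 lines for 8 of 37 genes, against 22.7% of all genes. Of these, 5 were lower in every line (ATF4, STC2, SHMT2, GARS and NARS), against 12.9%, and 3 were higher in every line (PPP1R15A, DNAJB9 and HERPUD1), against 9.81%. The median of the mean log2 ratio was -0.03 over the 37 genes and -0.02 over all genes tested. The count with the same sign in every line thus lies near the share for all genes, while the count at an unadjusted p lies above it and moves with the settings just named; the list as a whole was not tested, and what follows describes single genes. The p-values rest on the spread between these 4 lines, which also differ in harvest day and medium. In limma the variance of each gene is drawn toward that of genes at a like level. A p-value thus does not follow from the printed SD alone.

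**Figure D1:**
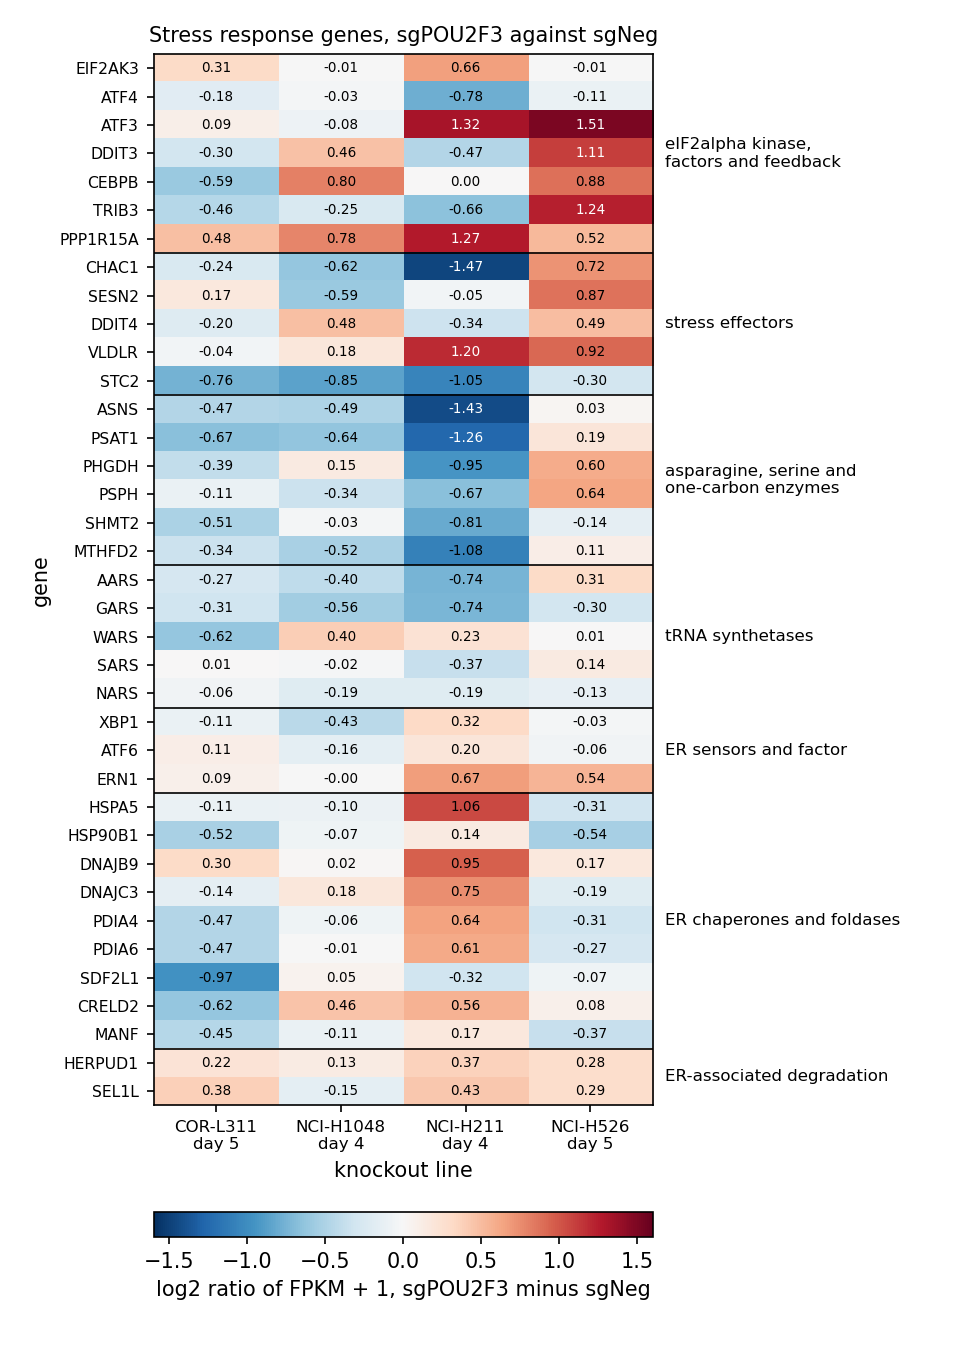
Log2 ratio of FPKM + 1, sgPOU2F3 minus sgNeg, for the 37 genes (rows, grouped by role) in the 4 knockout lines (columns), with the value printed in each cell. NCI-H211 holds most of the deep colours, with low amino acid enzymes and high ER chaperones, while PPP1R15A and HERPUD1 are above 0 and STC2 and GARS below 0 in all 4 lines.

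Among the kinase, factors and feedback genes, PPP1R15A had the smallest p of the list. PPP1R15A (GADD34) is the stress-induced phosphatase subunit that removes the phosphate from eIF2alpha. PPP1R15A stood at 15.5 FPKM (NCI-H526), 59.0 (NCI-H211), 172 (NCI-H1048) and 22.0 (COR-L311) with sgPOU2F3, against 10.5, 24.0, 99.9 and 15.5 FPKM in the same lines with sgNeg. It was higher with sgPOU2F3 within every line, while the levels of the lines overlap, NCI-H1048 standing far above the others in both arms. Its mean log2 ratio was 0.76 ± 0.36 (SD, n = 4 lines), with a limma p of 0.00195 and an adjusted p of 0.343. ATF4, the central factor, went the other way. ATF4 stood at 225 FPKM (NCI-H526), 174 (NCI-H211), 863 (NCI-H1048) and 403 (COR-L311) with sgPOU2F3, against 242, 300.3, 879 and 456 FPKM in the same lines with sgNeg. The values were lower within every line, but in NCI-H1048 and NCI-H526 by little, so the mean of -0.27 ± 0.34 rests largely on NCI-H211 (limma adjusted p = 0.518). Without NCI-H211 it was -0.10.

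ATF3, a stress-induced repressor and activator of the same factor family, was high in 2 lines. ATF3 stood at 7.77 FPKM (NCI-H526), 31.6 (NCI-H211), 61.5 (NCI-H1048) and 6.74 (COR-L311) with sgPOU2F3, against 2.08, 12.032, 65.0 and 6.27 FPKM in the same lines with sgNeg. It was 2.62-fold higher in NCI-H211 and 3.74-fold higher in NCI-H526, and near 1-fold in the other 2. DDIT3 (CHOP), a factor tied to cell death under lasting ER stress, split the lines. DDIT3 stood at 61.5 FPKM (NCI-H526), 29.5 (NCI-H211), 89.6 (NCI-H1048) and 62.9 (COR-L311) with sgPOU2F3, against 28.1, 41.2, 64.7 and 77.6 FPKM in the same lines with sgNeg. It was higher with sgPOU2F3 in NCI-H1048 and NCI-H526 and lower in COR-L311 and NCI-H211, with a mean of 0.20 ± 0.73. TRIB3, a pseudokinase induced by ATF4 and CHOP, was higher only in NCI-H526 of the 4 lines. TRIB3 stood at 77.6 FPKM (NCI-H526), 16.9 (NCI-H211), 21.4 (NCI-H1048) and 50.5 (COR-L311) with sgPOU2F3, against 32.2, 27.2, 25.6 and 69.8 FPKM in the same lines with sgNeg. Its ratios ran from -0.66 in NCI-H211 to 1.24 in NCI-H526, and its mean was -0.03 ± 0.87. CEBPB, a C/EBP factor that pairs with ATF4, also differed in sign between lines. CEBPB stood at 22.6 FPKM (NCI-H526), 21.7 (NCI-H211), 31.4 (NCI-H1048) and 20.4 (COR-L311) with sgPOU2F3, against 11.8, 21.6, 17.5 and 31.3 FPKM in the same lines with sgNeg. The ratio was positive in NCI-H1048 and NCI-H526, negative in COR-L311 and 0.00 in NCI-H211. EIF2AK3, the gene for PERK, varied least of these 7 genes. EIF2AK3 stood at 7.63 FPKM (NCI-H526), 16.9 (NCI-H211), 6.19 (NCI-H1048) and 8.10 (COR-L311) with sgPOU2F3, against 7.69, 10.4, 6.24 and 6.35 FPKM in the same lines with sgNeg. Only NCI-H211 and COR-L311 had a ratio away from 0, and its mean was 0.24 ± 0.32 (limma adjusted p = 0.562).

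Among the stress effectors, STC2, a secreted glycoprotein induced by ATF4, was lower in every line. STC2 stood at 16.1 FPKM (NCI-H526), 6.75 (NCI-H211), 10.7 (NCI-H1048) and 4.58 (COR-L311) with sgPOU2F3, against 20.0, 15.1, 20.1 and 8.45 FPKM in the same lines with sgNeg. The 2 sets of values overlap between lines, and within lines the ratio ran from -1.05 in NCI-H211 to -0.30 in NCI-H526 on the log2 scale. The mean was -0.74 ± 0.32 (limma p = 0.00203, adjusted p = 0.343). CHAC1, which breaks down glutathione and carries a CARE in the stretch shown above, had opposite signs in NCI-H211 and NCI-H526. CHAC1 stood at 12.9 FPKM (NCI-H526), 2.96 (NCI-H211), 15.1 (NCI-H1048) and 13.0 (COR-L311) with sgPOU2F3, against 7.42, 9.94, 23.8 and 15.6 FPKM in the same lines with sgNeg. The value with sgPOU2F3 was 0.298 times that with sgNeg in NCI-H211 and 1.74 times in NCI-H526. SESN2 and DDIT4 both restrain the growth kinase complex mTORC1. SESN2 had 13.8 FPKM with sgPOU2F3 and 21.3 FPKM with sgNeg in NCI-H1048, and 10.1 FPKM with sgPOU2F3 and 5.09 FPKM with sgNeg in NCI-H526, so the 2 lines differed in sign. DDIT4 stood at 122 FPKM (NCI-H526), 16.3 (NCI-H211), 115 (NCI-H1048) and 90.7 (COR-L311) with sgPOU2F3, against 86.2, 20.8, 81.952 and 105 FPKM in the same lines with sgNeg. Its ratios were positive in NCI-H1048 and NCI-H526 and negative in COR-L311 and NCI-H211. VLDLR, a lipoprotein receptor that ATF4 signalling induces, was high in 2 lines. VLDLR stood at 8.11 FPKM (NCI-H526), 12.5 (NCI-H211), 7.83 (NCI-H1048) and 1.57 (COR-L311) with sgPOU2F3, against 3.82, 4.88, 6.81 and 1.64 FPKM in the same lines with sgNeg. The mean was 0.56 ± 0.59, with ratios of 1.20 in NCI-H211, 0.92 in NCI-H526 and -0.04 in COR-L311 (limma adjusted p = 0.424).

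The 6 enzymes that make asparagine, serine and one-carbon units had a mean log2 ratio below 0 over the 4 lines, with a median of -0.42, beside -0.02 for all genes tested. Without NCI-H211 the means of PHGDH (0.12) and PSPH (0.06) were above 0, and those of ASNS (-0.31), PSAT1 (-0.37), SHMT2 (-0.22) and MTHFD2 (-0.25) moved over 1.5 times closer to 0. Of the 6, 4 were lower at an unadjusted p under 0.05, against 7.08% of all genes, and 0 passed the adjusted threshold. ASNS stood at 70.8 FPKM (NCI-H526), 45.8 (NCI-H211), 83.1 (NCI-H1048) and 59.3 (COR-L311) with sgPOU2F3, against 69.3, 125, 117 and 82.3 FPKM in the same lines with sgNeg. ASNS was lower with sgPOU2F3 in 3 lines and level in NCI-H526, and its mean was -0.59 ± 0.61 (limma adjusted p = 0.415). PSAT1, the aminotransferase of serine synthesis, likewise had its lowest log2 ratio in NCI-H211 and its highest in NCI-H526. PSAT1 stood at 39.5 FPKM (NCI-H526), 22.7 (NCI-H211), 87.0 (NCI-H1048) and 24.3 (COR-L311) with sgPOU2F3, against 34.5, 55.6, 136 and 39.1 FPKM in the same lines with sgNeg. Its mean log2 ratio was -0.59 ± 0.59, with -1.26 in NCI-H211 and 0.19 in NCI-H526 (limma adjusted p = 0.409). SHMT2, the mitochondrial enzyme that turns serine into glycine and a one-carbon unit, was lower in every line. SHMT2 stood at 130.1 FPKM (NCI-H526), 72.0 (NCI-H211), 131 (NCI-H1048) and 132 (COR-L311) with sgPOU2F3, against 143, 127, 134 and 188 FPKM in the same lines with sgNeg. The difference was close to 0 in NCI-H1048, and the mean was -0.37 ± 0.36 (limma adjusted p = 0.423). MTHFD2, the next mitochondrial folate enzyme, averaged -0.46 ± 0.49, with 97.8 FPKM with sgPOU2F3 and 208 FPKM with sgNeg in NCI-H211. PHGDH, which starts serine synthesis, and PSPH, which ends it, had opposite signs between lines. PHGDH had 51.9 FPKM with sgPOU2F3 and 101 FPKM with sgNeg in NCI-H211, and 219 FPKM with sgPOU2F3 and 145 FPKM with sgNeg in NCI-H526. PSPH had 12.004 FPKM with sgPOU2F3 and 19.7 FPKM with sgNeg in NCI-H211, and 21.3 FPKM with sgPOU2F3 and 13.3 FPKM with sgNeg in NCI-H526, but it has a near-identical pseudogene copy, PSPHP1, so reads may have been split. In NCI-H211 all 6 enzymes were lower with sgPOU2F3, with a median of -1.01, whereas in NCI-H526 5 of 6 were higher, with a median of 0.15. With sgNeg these enzymes, except SHMT2, stood above the parental library of NCI-H211, with a median log2 difference of 0.73 over the 6. In NCI-H526 they stood under the parental library, with a median of -0.61. Both comparisons use the same single sgNeg value of a line.

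The 5 tRNA synthetases, which charge tRNAs with amino acids, had a median of -0.14. GARS, for glycine, had the smallest p of the 5. GARS stood at 65.3 FPKM (NCI-H526), 80.5 (NCI-H211), 49.4 (NCI-H1048) and 72.8 (COR-L311) with sgPOU2F3, against 80.5, 135, 73.3 and 90.7 FPKM in the same lines with sgNeg. All 4 ratios lay between -0.74 and -0.30, and the mean was -0.48 ± 0.21 (limma p = 0.00427, adjusted p = 0.378). NARS, for asparagine, was also lower in every line, but by little. NARS stood at 73.4 FPKM (NCI-H526), 154 (NCI-H211), 67.3 (NCI-H1048) and 87.1 (COR-L311) with sgPOU2F3, against 80.3, 177, 76.9 and 90.9 FPKM in the same lines with sgNeg. Its mean was -0.14 ± 0.06 (limma adjusted p = 0.544). AARS, for alanine, averaged -0.28 ± 0.44, with a ratio of -0.74 in NCI-H211 and 0.31 in NCI-H526. WARS, for tryptophan, averaged 0.00 ± 0.44, and SARS, for serine, -0.06 ± 0.22. The WARS log2 ratio was -0.62 in COR-L311, and between 0.01 and 0.40 in the other 3 lines.

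Of the ER sensors, XBP1, the factor downstream of IRE1, showed no common direction. XBP1 stood at 50.9 FPKM (NCI-H526), 96.9 (NCI-H211), 41.5 (NCI-H1048) and 43.1 (COR-L311) with sgPOU2F3, against 51.9, 77.7, 56.1 and 46.6 FPKM in the same lines with sgNeg. NCI-H211 had a ratio of 0.32 and NCI-H1048 one of -0.43, with a mean of -0.06 ± 0.31. ATF6 averaged 0.02 ± 0.16. ERN1, the gene for IRE1, was low throughout, at most 3.59 FPKM with sgPOU2F3 and 1.89 FPKM with sgNeg, and averaged 0.32 ± 0.33.

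The 9 ER chaperones and foldases had a median of -0.03 across lines, with NCI-H211 on the higher side and COR-L311 and NCI-H526 on the lower. HSPA5 stood at 107 FPKM (NCI-H526), 214 (NCI-H211), 227 (NCI-H1048) and 72.6 (COR-L311) with sgPOU2F3, against 133, 102, 243 and 78.6 FPKM in the same lines with sgNeg. HSPA5, the main ER chaperone, was 2.1-fold higher with sgPOU2F3 in NCI-H211 and between 0.805 and 0.935 times the sgNeg value in the other 3 lines. HSP90B1, the ER member of the HSP90 family, was lower in 3 lines. HSP90B1 stood at 247 FPKM (NCI-H526), 249 (NCI-H211), 359.8 (NCI-H1048) and 228 (COR-L311) with sgPOU2F3, against 359, 226, 378 and 327 FPKM in the same lines with sgNeg. Its ratio was close to 0 in NCI-H1048 and slightly positive in NCI-H211. PDIA4, a protein disulfide isomerase, had the pattern of HSPA5. PDIA4 stood at 98.1 FPKM (NCI-H526), 177 (NCI-H211), 105 (NCI-H1048) and 54.9 (COR-L311) with sgPOU2F3, against 122, 113, 109.9 and 76.3 FPKM in the same lines with sgNeg. Only NCI-H211 was higher with sgPOU2F3. SDF2L1 had the largest single difference of COR-L311 in the list. SDF2L1 stood at 43.0 FPKM (NCI-H526), 50.4 (NCI-H211), 47.4 (NCI-H1048) and 33.0 (COR-L311) with sgPOU2F3, against 45.1, 63.0, 45.7 and 65.8 FPKM in the same lines with sgNeg. It was lower in COR-L311 and NCI-H211 and near level in the other 2. MANF, a secreted ER stress-induced factor, was lower in 3 of 4 lines. MANF stood at 70.7 FPKM (NCI-H526), 56.5 (NCI-H211), 120.2 (NCI-H1048) and 52.5 (COR-L311) with sgPOU2F3, against 91.4, 49.955, 129 and 72.1 FPKM in the same lines with sgNeg. Only NCI-H211 had a positive ratio, 0.17. DNAJB9, an HSPA5 cochaperone, was the chaperone gene higher in every line. DNAJB9 stood at 14.4 FPKM (NCI-H526), 8.09 (NCI-H211), 16.9 (NCI-H1048) and 16.6 (COR-L311) with sgPOU2F3, against 12.7, 3.71, 16.7 and 13.3 FPKM in the same lines with sgNeg. NCI-H211 had a ratio of 0.95 and NCI-H1048 one of 0.02, with a mean of 0.36 ± 0.41 (limma adjusted p = 0.466). The remaining 3, the cochaperone DNAJC3, the isomerase PDIA6 and CRELD2, had means of 0.15 ± 0.43, -0.03 ± 0.47 and 0.12 ± 0.54.

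Both genes of ER-associated degradation had mean ratios above 0. HERPUD1 stood at 21.6 FPKM (NCI-H526), 36.0 (NCI-H211), 21.8 (NCI-H1048) and 36.9 (COR-L311) with sgPOU2F3, against 17.7, 27.6, 19.8 and 31.4 FPKM in the same lines with sgNeg. HERPUD1 was higher in every line with little spread, 0.25 ± 0.10 on the log2 scale (limma p = 0.0343, adjusted p = 0.412). SEL1L, the adaptor of the HRD1 ubiquitin ligase, was higher in 3 lines. SEL1L stood at 13.9 FPKM (NCI-H526), 29.3 (NCI-H211), 14.3 (NCI-H1048) and 9.05 (COR-L311) with sgPOU2F3, against 11.2, 21.5, 16.0 and 6.72 FPKM in the same lines with sgNeg. NCI-H1048 had a ratio of -0.15, and the mean was 0.24 ± 0.27 (limma adjusted p = 0.515).

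**Figure D2:**
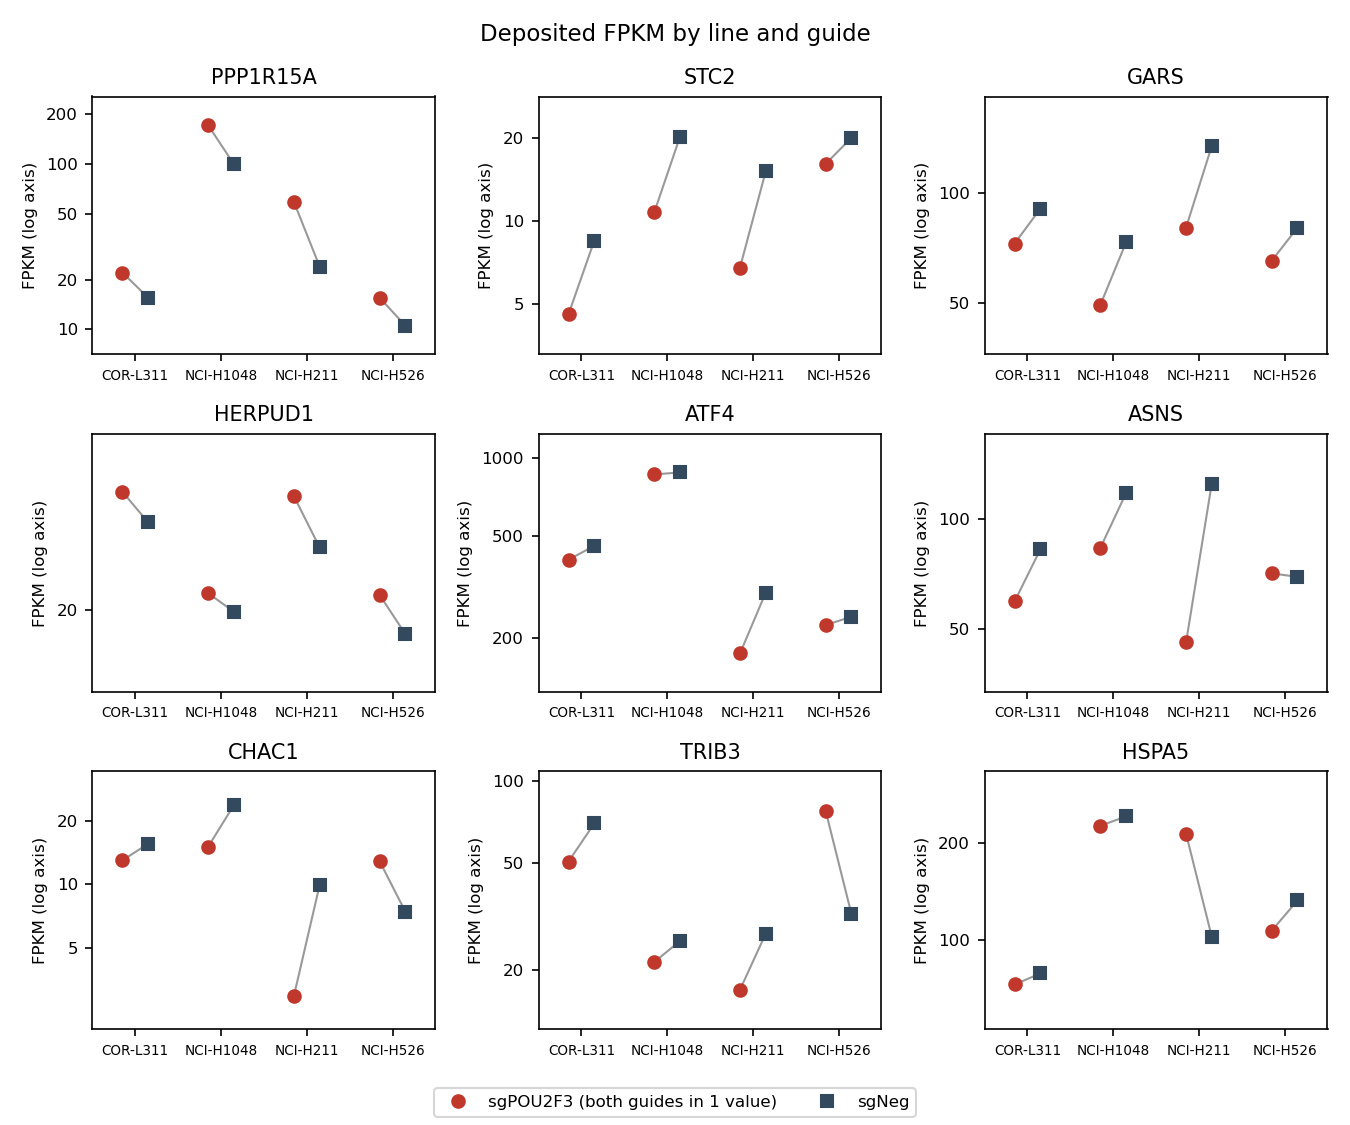
FPKM (log axis) of 9 of the genes in each knockout line, with sgPOU2F3 (circles, both guides in 1 value) left of sgNeg (squares) and a line joining the 2 values of a line. PPP1R15A and HERPUD1 slope down to sgNeg in all 4 lines and STC2, GARS and ATF4 slope up, while CHAC1 and TRIB3 slope up to sgNeg in 3 lines and down in NCI-H526, and HSPA5 slopes down only in NCI-H211.

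Line by line, the picture was not uniform. At a difference of at least 2-fold in FPKM + 1 within a line, a description with no replicate check, NCI-H211 had 5 of 37 genes lower (ASNS, PSAT1, CHAC1, MTHFD2 and STC2), against 4.26% of all genes tested, and 4 higher (ATF3, VLDLR, PPP1R15A and HSPA5), against 4.87%. In either direction that made 9 of 37, against 9.13%. NCI-H526 had 0 lower, against 0.388%, and 3 higher (ATF3, DDIT3 and TRIB3), against 1.39%, or 3 of 37 in either direction, against 1.78%. COR-L311 had 0 lower and 0 higher, against 1.92% and 2.81% (4.73% in either direction), and NCI-H1048 likewise 0 and 0, against 0.783% and 0.767% (1.55%). The PERK-ATF4 arm had a median log2 ratio of -0.66 in NCI-H211 (17 of 23 genes below 0) and 0.31 in NCI-H526 (17 of 23 above 0). The ER chaperones had the opposite signs, 0.61 in NCI-H211 (8 of 9 above 0) and -0.27 in NCI-H526 (7 of 9 below 0). In COR-L311 both arms were below 0, at -0.27 for PERK-ATF4 and -0.47 for the chaperones, and in NCI-H1048 both were near 0, at -0.08 and -0.01. These signs were the same with ratios centred on the median of all genes, after quantile normalization and with a pseudocount of 0.1. NCI-H211 was also the line with the largest difference in POU2F3. From the marker list, the keratin gene KRT8 there had 1375 FPKM with sgPOU2F3 and 299.6 FPKM with sgNeg, a log2 ratio of 2.20. KRT8 was not particular to that line, as its ratio was 1.78 in NCI-H1048, where both arms were near 0. It was 0.18 in NCI-H526 and -0.30 in COR-L311. Of other markers in NCI-H211, YAP1 had a log2 ratio of 4.61 and EPCAM one of -0.09. The part of POU2F3 or of these markers in the stress genes was not tested.

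The harvest day gives the only contrast between knockout lines that the labels name, and day cannot be told apart from line and medium. The log2 ratios of NCI-H526 and COR-L311 (day 5) were set against those of NCI-H211 and NCI-H1048 (day 4), with each difference given as day 4 minus day 5. At an adjusted p under 0.05 limma called 0 of 12387 genes in either direction (0.0%), and at an unadjusted p under 0.05 it called 5 of 37 genes of the list, against 5.51% of all genes. Of these, 3 had a positive difference, against 2.74%, and 2 a negative one, against 2.76%. CHAC1 averaged 0.24 (mean log2 ratio) in the day 5 lines and -1.05 in the day 4 lines, a difference of -1.28 (limma adjusted p = 0.826). PSPH averaged 0.27 in the day 5 lines and -0.50 in the day 4 lines, a difference of -0.77. For 3 chaperone genes the difference was positive. CRELD2 averaged -0.27 in the day 5 lines and 0.51 in the day 4 lines, a difference of 0.78. PDIA6 averaged -0.37 in the day 5 lines and 0.30 in the day 4 lines, a difference of 0.67. HSP90B1 averaged -0.53 in the day 5 lines and 0.04 in the day 4 lines, a difference of 0.56. All 5 had a limma adjusted p of 0.826. HSPA5 was called in this contrast when NCI-H1048 was left out, with a difference of 1.27 and a limma adjusted p of 0.0335, where 2.24% of all genes were called higher, 1.7% lower and 3.94% in either direction, so 1 of 37 is no more than that share. The day 4 group then held NCI-H211 alone, assumed to vary like the day 5 lines.

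The sgNeg column of each knockout line can be set beside the parental library of the same line. These come from tables normalized separately, and infection, day and culture differ between them, so the values are a description with no test. In NCI-H526, 13 of 37 genes were at least 2-fold lower with sgNeg, against 2.34% of all genes, and 4 were at least 2-fold higher, against 2.67%. TRIB3 in NCI-H526 stood at 32.2 FPKM with sgNeg, against 231 FPKM in the parental library, a log2 difference of -2.80. CHAC1 stood at 7.42 FPKM with sgNeg, against 44.7 FPKM in the parental library, and DDIT3 at 28.1 FPKM with sgNeg, against 110.1 FPKM in the parental library. The chaperone genes stood the other way, with HSPA5 at 133 FPKM with sgNeg, against 36.8 FPKM in the parental library, and HSP90B1 at 359 FPKM with sgNeg, against 144 FPKM in the parental library. In that line, the higher TRIB3 and CHAC1 with sgPOU2F3 (77.6 and 12.9 FPKM) still lay well under the parental levels. In the other 3 lines the genes past 2-fold were all higher with sgNeg. NCI-H1048 had 10 of 37 genes at least 2-fold higher with sgNeg, against 3.23% of all genes, and NCI-H211 had 9, against 3.22%. COR-L311 had 2, CEBPB and DDIT4, against 4.04%, and none of these 3 lines had a gene of the list at least 2-fold lower (2.24% of all genes in COR-L311, 1.05% in NCI-H1048 and 1.75% in NCI-H211). PPP1R15A in NCI-H1048 stood at 99.9 FPKM with sgNeg, against 26.2 FPKM in the parental library, and DDIT3 at 64.7 FPKM with sgNeg, against 16.5 FPKM in the parental library. DDIT4 in NCI-H211 stood at 20.8 FPKM with sgNeg, against 3.74 FPKM in the parental library, the largest of that line. With sgPOU2F3, CHAC1 (2.96 FPKM) and PSAT1 (22.7) in NCI-H211 lay under sgNeg (9.94 and 55.6) and near the parental levels (2.75 and 24.0). ASNS (45.8 FPKM) and SHMT2 (72.0) there lay under the parental levels too (73.2 and 139). PPP1R15A (59.0 FPKM) there lay above both sgNeg (24.0) and the parental level (11.4). The median over the PERK-ATF4 arm was -0.98 in NCI-H526, 0.85 in NCI-H211, 0.26 in NCI-H1048 and 0.17 in COR-L311, beside medians of 0.02 to 0.10 for all genes. In NCI-H526 the log2 differences of sgNeg from the parental library for TRIB3 (-2.80), CHAC1 (-2.44) and DDIT3 (-1.93) were larger in size than those of sgPOU2F3 from sgNeg (1.24, 0.72 and 1.11). Both differences use the same single sgNeg value of a line, with opposite sign, so an error in it would move them in opposite directions.

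**Figure D3:**
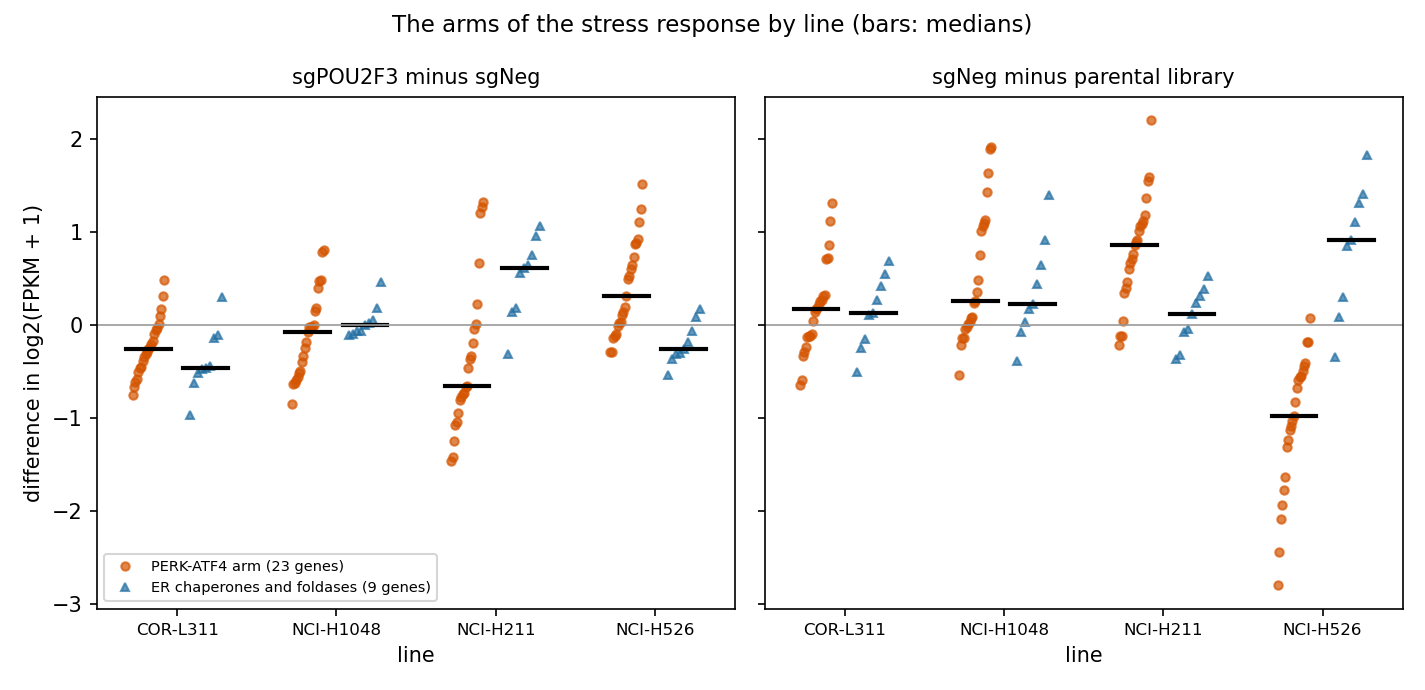
Difference in log2(FPKM + 1) for the 23 genes of the PERK-ATF4 arm (circles) and the 9 ER chaperone genes (triangles) in each knockout line, sgPOU2F3 minus sgNeg on the left and sgNeg minus the parental library on the right, with bars at the medians; both panels use the same sgNeg values. In NCI-H211 the arms part on the left panel, with medians of -0.66 and 0.61, and with 0.85 and 0.11 on the right. In NCI-H526 they part on the right panel, with medians of -0.98 and 0.91, and with 0.31 and -0.27 on the left.

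In the parental lines, the question is whether stress gene levels differ between the 4 POU2F3-expressing knockout lines and the 10 others. No gene of the list passed the threshold. At an adjusted p under 0.05 (limma, Benjamini-Hochberg over 13226 genes), 0 of 37 were higher in the 4 lines, against 0.212% of all genes, and 0 were lower, against 0.0378%. At an unadjusted p under 0.05, 1 of 37 differed, against 8.66% of all genes. It was lower, against 4.06%, and 0 were higher, against 4.6%. That gene was WARS. It stood at 36.7 FPKM (NCI-H526), 19.0 (NCI-H211), 22.2 (NCI-H1048) and 30.3 (COR-L311), against a lowest value of 29.2, a median of 85.5 and a highest value of 185 FPKM in the 10 other lines. The 4 values overlap the low end of the 10, and the log2 difference was -1.45 (limma p = 0.00621, adjusted p = 0.299). No gene of the list had all 4 lines above the 10 others, against 0.401% of all genes, or all 4 below, against 0.25%. The median difference was -0.20 over the 37 genes and -0.00 over all genes tested.

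The lines differed widely among themselves, within either group. The SD of log2(FPKM + 1) over 14 lines had a median of 0.79 for the 37 genes and 0.70 for all genes tested, and 23 of 37 genes stood above the median of all. STC2 varied most, with an SD of 1.96. It stood at 30.6 FPKM (NCI-H526), 7.66 (NCI-H211), 14.1 (NCI-H1048) and 7.62 (COR-L311), against a lowest value of 0.246, a median of 15.8 and a highest value of 50.3 FPKM in the 10 other lines. NCI-H446 (0.246 FPKM), NCI-H82 (0.378) and DMS114 (0.672) had almost none, while NCI-H69 had 50.3 and NCI-H524 49.2 FPKM. DDIT4 came next, with an SD of 1.65. It stood at 178 FPKM (NCI-H526), 3.74 (NCI-H211), 29.8 (NCI-H1048) and 41.8 (COR-L311), against a lowest value of 10.9, a median of 67.3 and a highest value of 173 FPKM in the 10 other lines. NCI-H211 was the lowest of all 14 lines and NCI-H526 the highest, so the 4 lines span the range of the others.

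TRIB3 had an SD of 1.53. It stood at 231 FPKM (NCI-H526), 12.3 (NCI-H211), 11.2 (NCI-H1048) and 42.3 (COR-L311), against a lowest value of 7.45, a median of 24.8 and a highest value of 156 FPKM in the 10 other lines. NCI-H526, NCI-H146 and NCI-H524 stood well above the other 11 lines. CEBPB had an SD of 1.35 and stood at 53.6 FPKM (NCI-H526), 6.55 (NCI-H211), 10.0 (NCI-H1048) and 13.9 (COR-L311), against a lowest value of 1.24, a median of 12.2 and a highest value of 52.5 FPKM in the 10 other lines. CHAC1 had an SD of 1.34 and stood at 44.7 FPKM (NCI-H526), 2.75 (NCI-H211), 18.4 (NCI-H1048) and 17.2 (COR-L311), against a lowest value of 1.56, a median of 8.45 and a highest value of 43.1 FPKM in the 10 other lines. For both genes NCI-H526 was the highest of the 14 lines and NCI-H128 the lowest. VLDLR had an SD of 1.24 and stood at 9.60 FPKM (NCI-H526), 2.13 (NCI-H211), 2.75 (NCI-H1048) and 1.11 (COR-L311), against a lowest value of 0.942, a median of 9.74 and a highest value of 29.5 FPKM in the 10 other lines. COR-L311 and DMS114 were lowest and NCI-H146 highest. EIF2AK3 varied least of the list, with an SD of 0.47.

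The central read-outs overlapped between the 2 sets of lines. ATF4 stood at 276 FPKM (NCI-H526), 143 (NCI-H211), 412 (NCI-H1048) and 392 (COR-L311), against a lowest value of 130.1, a median of 189 and a highest value of 368 FPKM in the 10 other lines. DDIT3 stood at 110.1 FPKM (NCI-H526), 15.4 (NCI-H211), 16.5 (NCI-H1048) and 42.4 (COR-L311), against a lowest value of 21.5, a median of 43.9 and a highest value of 103 FPKM in the 10 other lines. The 4 lines held the highest value of each gene and also values at or near its lowest. ASNS stood at 165 FPKM (NCI-H526), 73.2 (NCI-H211), 111 (NCI-H1048) and 79.8 (COR-L311), against a lowest value of 45.9, a median of 93.1 and a highest value of 264 FPKM in the 10 other lines. XBP1 stood at 59.7 FPKM (NCI-H526), 45.5 (NCI-H211), 35.0 (NCI-H1048) and 34.9 (COR-L311), against a lowest value of 23.6, a median of 73.5 and a highest value of 139 FPKM in the 10 other lines. HSPA5 stood at 36.8 FPKM (NCI-H526), 87.1 (NCI-H211), 128.3 (NCI-H1048) and 72.2 (COR-L311), against a lowest value of 50.7, a median of 108 and a highest value of 299 FPKM in the 10 other lines. NCI-H526 had the least HSPA5 of the 14 lines and the most TRIB3 and DDIT3, and NCI-H510 had the most HSPA5. HERPUD1 stood at 53.3 FPKM (NCI-H526), 14.966 (NCI-H211), 9.34 (NCI-H1048) and 33.3 (COR-L311), against a lowest value of 17.3, a median of 33.4 and a highest value of 210.3 FPKM in the 10 other lines, with NCI-H524 far above the rest.

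**Figure D4:**
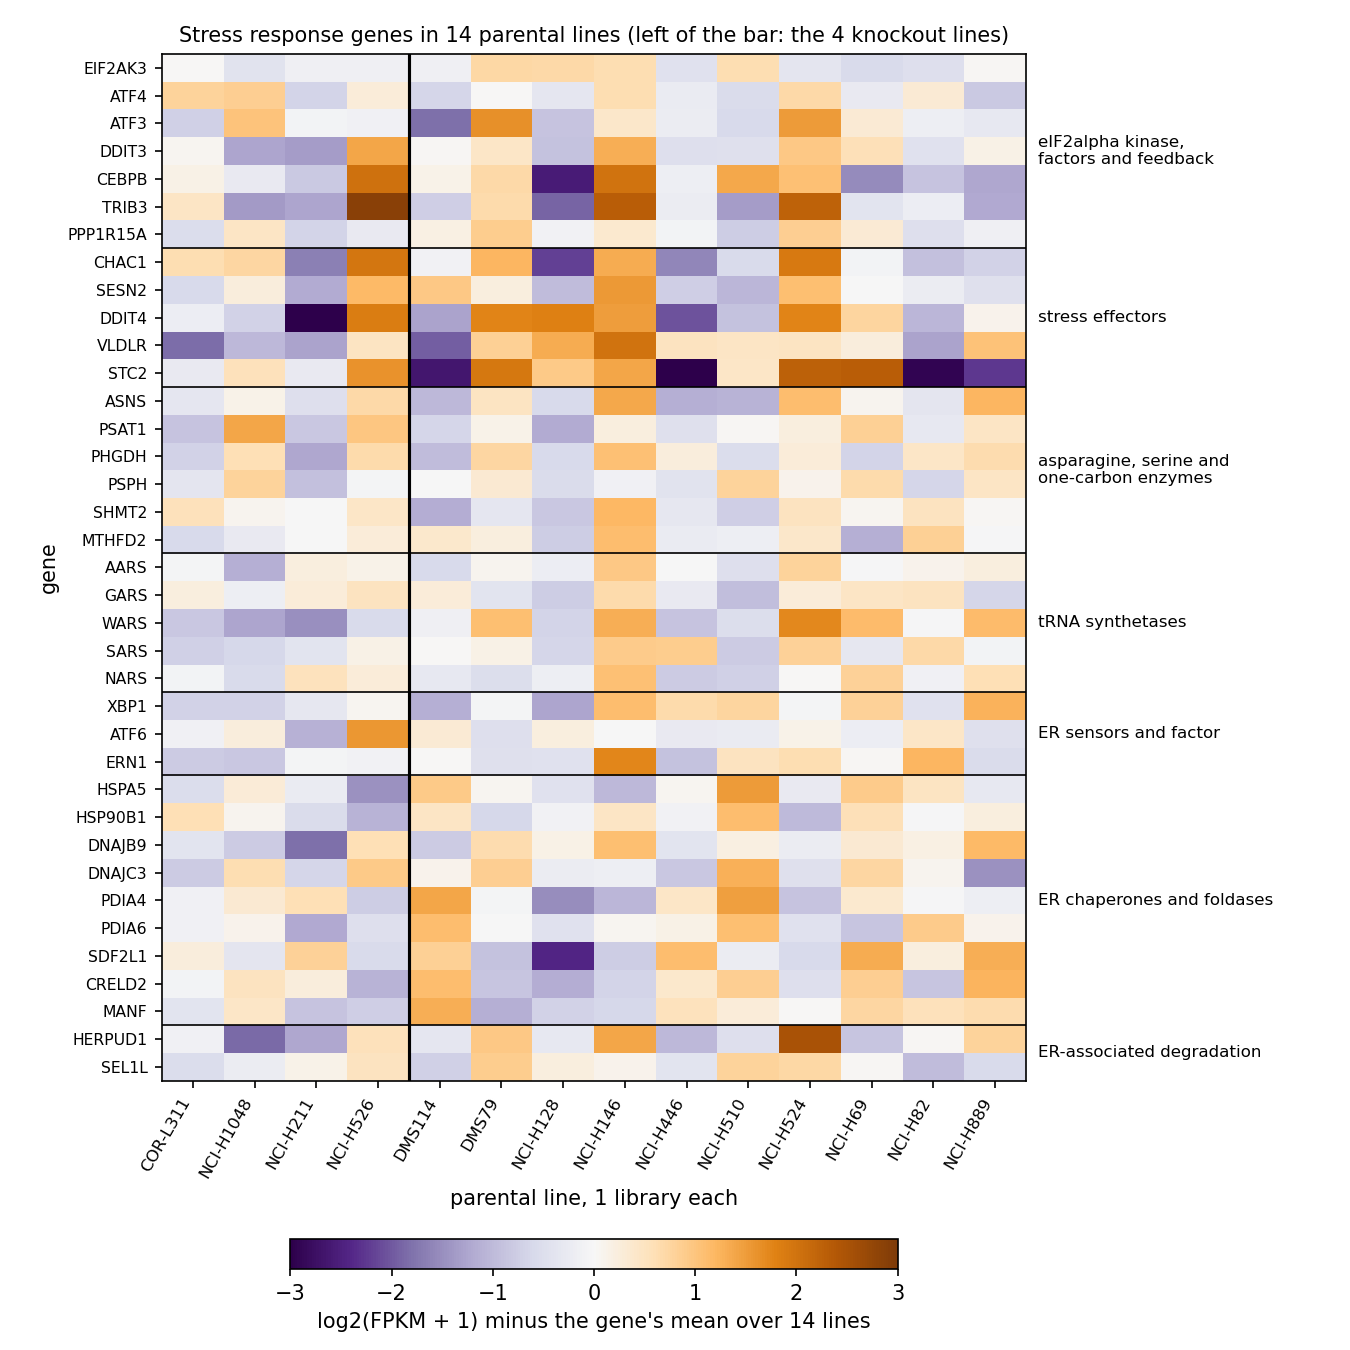
Log2(FPKM + 1) of the 37 genes (rows) in the 14 parental lines (columns, 1 library each; the 4 knockout lines stand left of the vertical bar), minus the mean of the gene over the 14 lines. NCI-H146, NCI-H524 and NCI-H526 are high over most of the rows of the PERK-ATF4 arm, and DMS114 and NCI-H510 are high over most chaperone rows; the colour scale ends at 3 in either direction.

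The 2 arms varied apart from line to line. NCI-H146 was among the 3 highest of 14 lines for 16 of 23 genes of the PERK-ATF4 arm, NCI-H524 for 15 and NCI-H526 for 9. These 3 lines were among the 3 highest for 1, 0 and 1 of the 9 chaperones. DMS114, NCI-H510 and NCI-H69 were each among the 3 highest for 5 of 9 chaperones, and for 0, 2 and 4 of the 23 genes. NCI-H128 was among the 3 lowest for 12 of the 23 genes. Estimated depth was 30.9 M fragments in NCI-H146, 26.9 M in NCI-H524 and 30.9 M in NCI-H526. It was 11.7 M in DMS114, 10.7 M in NCI-H510, 30.9 M in NCI-H69 and 11.2 M in NCI-H128. NCI-H82, at 28.2 M, was among the 3 highest for 2 of the 23 genes. The part of depth in these ranks was not tested. Across the 14 lines, which share 1 table and differ in depth and lineage, the median Pearson r between genes was 0.37 over 253 pairs within the PERK-ATF4 arm, 0.35 over 36 pairs of chaperones and -0.18 over 207 pairs between the arms, of which 145 were below 0. Over all genes tested it was -0.00. These are descriptions across lines, with no test. Leaving out any 1 line, the medians ran from 0.31 to 0.43 within the PERK-ATF4 arm, 0.31 to 0.43 within the chaperones and -0.26 to -0.12 between them. The closest pair was DDIT3 with TRIB3 (r = 0.86, rho = 0.82), followed by CHAC1 with SESN2 (r = 0.81, rho = 0.84) and TRIB3 with CHAC1 (r = 0.81, rho = 0.71). Among chaperones the closest was HSPA5 with PDIA4 (r = 0.79, rho = 0.81). The lowest was DDIT4 with PDIA4 (r = -0.72, rho = -0.81), and TRIB3 with HSPA5 had r = -0.60 (rho = -0.45). Within the PERK-ATF4 arm, EIF2AK3, the gene for PERK, had r = -0.15 with ATF4 (rho = -0.23). It had r = -0.03 with TRIB3 (rho = -0.06) and 0.38 with DDIT4 (rho = 0.33).

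**Figure D5:**
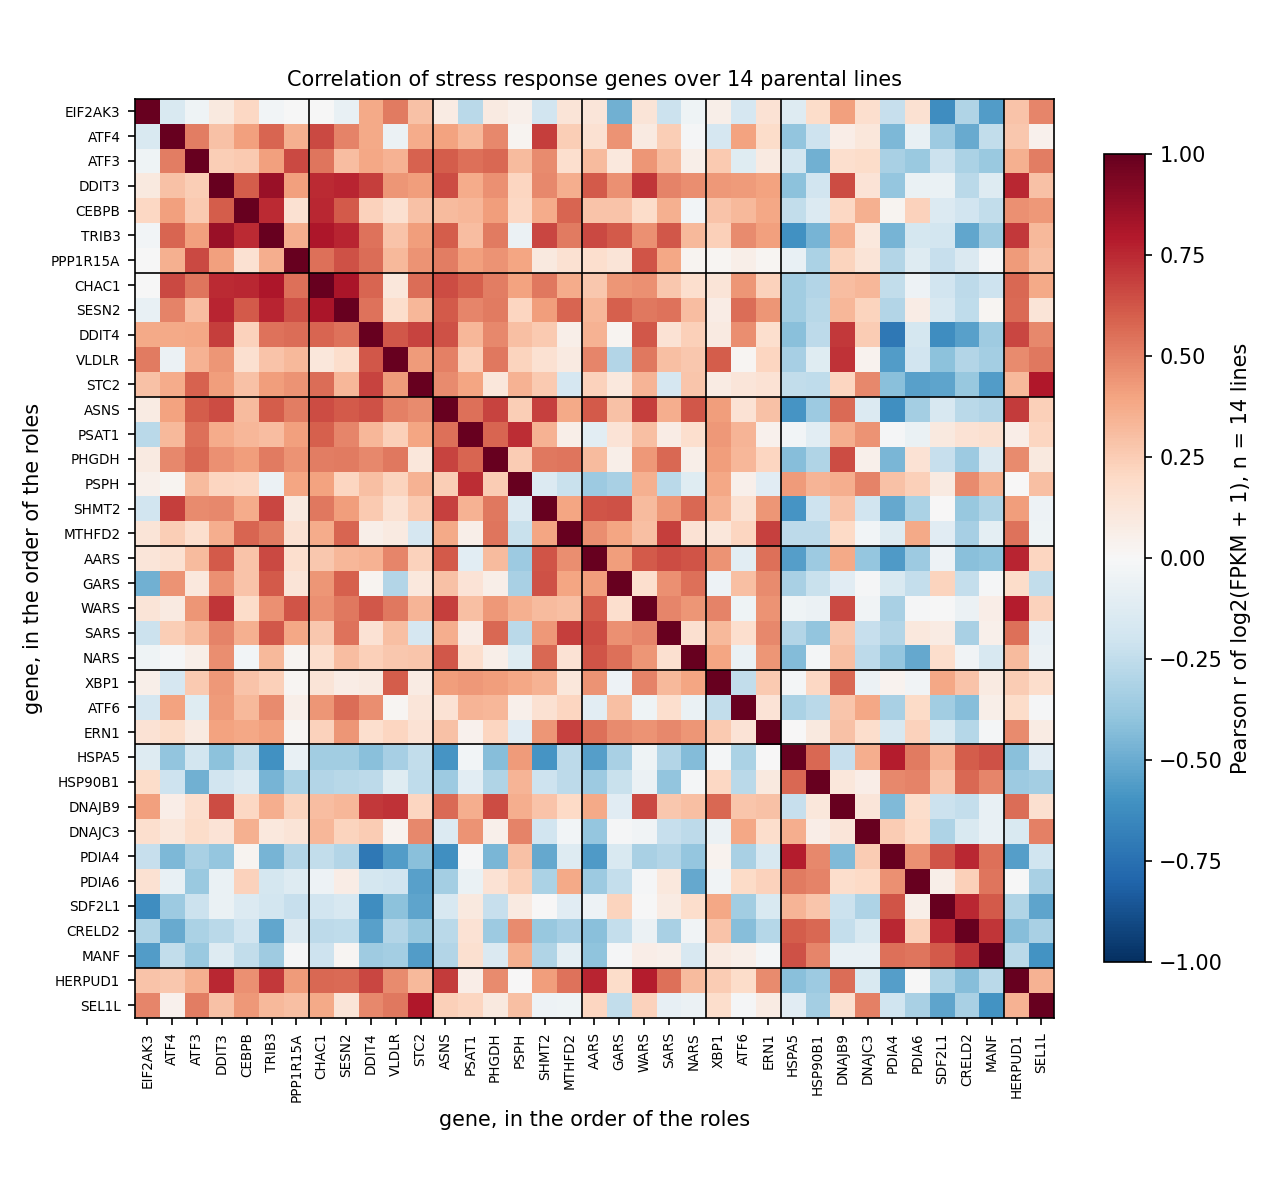
Pearson r of log2(FPKM + 1) over 14 parental lines for every pair of the 37 genes, in the order of their roles, with black lines between roles. The block of the PERK-ATF4 arm and the block of chaperones are mostly red within, and mostly blue where they meet, with a median r of -0.18, while DNAJB9 and HERPUD1 are red against many genes of the PERK-ATF4 arm.

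Other genes of the pathways were read from lists of related genes. Of 131 listed, 126 were in the tables and 120 were tested in the knockout comparison. Of these 120, limma called 0 at an adjusted p under 0.05. At an unadjusted p under 0.05, 4 were higher, against 4.67% of all genes, and 12 were lower, against 7.08%, so these counts lie near the shares for all genes. Enzymes of amino acid and folate metabolism were lower with sgPOU2F3 in mean ratio for 11 of 12 genes, with a median of -0.41, and 5 of 12 were lower at an unadjusted p under 0.05, against the same 7.08%. They include the aspartate aminotransferase GOT1 (-0.53 ± 0.23), the proline enzyme PYCR1 (-0.71 ± 0.47) and the alanine aminotransferase GPT2 (-0.56 ± 0.45), given as mean log2 ratios with SD over 4 lines. The 5 also include the branched-chain aminotransferase BCAT1, which is listed at 0 FPKM in both NCI-H1048 columns, so no mean over 4 lines is given for it. The 13 other cytosolic tRNA synthetases had 12 means below 0, a median of -0.25 and 4 genes lower at an unadjusted p under 0.05, against 7.08% of all genes, namely YARS (-0.36 ± 0.18), CARS (-0.37 ± 0.23), MARS (-0.27 ± 0.17) and KARS (-0.25 ± 0.16). All genes tested had 6596 of 12387 means below 0. EIF4EBP1, an ATF4-induced brake on translation, averaged -0.63 ± 0.56, and stood at 121 FPKM with sgPOU2F3 and 281 FPKM with sgNeg in NCI-H211.

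In NCI-H526 the related lists differed in sign. The 9 tested ATF4-induced factors and secreted proteins had a median log2 ratio of 0.31 (8 above 0), and 10 amino acid transporters one of 0.19 (6 above 0). The 12 amino acid and folate enzymes had a median of -0.17 (9 below 0), and the 13 other tRNA synthetases one of -0.11 (11 below 0). ATF5, a factor of the mitochondrial stress response, had 205 FPKM with sgPOU2F3 and 67.4 FPKM with sgNeg in NCI-H526. The stress cytokine GDF15 had 3.80 FPKM with sgPOU2F3 and 0.361 FPKM with sgNeg there, the latter under the 1 FPKM of the filter. The cystine transporter SLC7A11 had 3.72 FPKM with sgPOU2F3 and 1.19 FPKM with sgNeg in NCI-H526, and 6.05 FPKM with sgPOU2F3 and 14.3 FPKM with sgNeg in NCI-H1048, so the 2 lines differed in sign. In NCI-H211 the amino acid transporters SLC1A4 and SLC43A1 were lower with sgPOU2F3. SLC1A4 had 11.8 FPKM with sgPOU2F3 and 33.6 FPKM with sgNeg, and SLC43A1 had 5.46 FPKM with sgPOU2F3 and 23.7 FPKM with sgNeg. SLC38A2, a neutral amino acid transporter, went the other way in NCI-H211, with 158 FPKM with sgPOU2F3 and 63.1 FPKM with sgNeg.

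In the lists that follow, single genes at an unadjusted p under 0.05 stand against 11.8% of all genes in either direction. The 17 further ER chaperones tested had a median of 0.05 across lines and 16 of 17 ratios above 0 in NCI-H211, where their median was 0.44. SIL1, a nucleotide exchange factor of HSPA5, had a mean of 0.61 ± 0.50 and an unadjusted p of 0.0214, with 18.2 FPKM with sgPOU2F3 and 6.58 FPKM with sgNeg in NCI-H211. Of 21 genes of ER-associated degradation and translocation, OS9, a lectin that recognises misfolded glycoproteins, averaged 0.31 ± 0.21, the only one with an unadjusted p under 0.05 (0.0273). The mitochondrial chaperonin HSPD1 averaged -0.30 ± 0.10, the only one of 14 heat shock and mitochondrial stress genes with an unadjusted p under 0.05 (0.02). Of 7 tested p53 targets that stress also induces, 2 were higher at an unadjusted p under 0.05, against 4.67% of all genes. They were TP53I3, at 0.55 ± 0.33, and the cell cycle inhibitor CDKN1A, at 1.13 ± 1.09, with 22.4 FPKM with sgPOU2F3 and 2.73 FPKM with sgNeg in COR-L311 and 155 FPKM with sgPOU2F3 and 74.3 FPKM with sgNeg in NCI-H526. None of the 12 tested genes for the other eIF2alpha kinases, phosphatase subunits and eIF2B had an unadjusted p under 0.05.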

How the data were processed

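The authors deposited 5 tables of FPKM values, 1 per knockout line and 1 for the 14 parental libraries. Per the submitters' processing notes, TopHat2, Cufflinks and Cuffdiff were used with the build hg19; versions, annotation and scaling between columns are not given in the sources used here. Per the labels, libraries were polyA-selected with a TruSeq kit, and no strand use in counting is stated. Each knockout table holds 1 sgPOU2F3 column for both guides and 1 sgNeg column, so no spread between guides can be had. Depth was estimated from the smallest steps in FPKM and is approximate.

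Values were taken as log2(FPKM + 1), which understates changes of low genes. A gene was tested where 4 or more columns reached 1 FPKM. Fits were made with limma 3.58.1 (R 4.3.3), allowing the variance to follow the mean, with Benjamini-Hochberg adjustment over all genes tested and with line as a block in the knockout (3 residual degrees of freedom). Same-line deviations of the sgPOU2F3 and sgNeg columns correlated at 0.85 to 0.94, against -0.47 to 0.04 between lines, and the pairing comes from the lines named in the labels. The fits were also run on simulated data. The recovery rates are not reported here, so that run does not tell how many true changes could be missed. Values in every column are given for genes with the same sign in 4 lines, the 3 largest differences in each direction per line, the 6 largest spreads over parental lines, and ATF4, DDIT3, XBP1, HSPA5 and ASNS. From each related list the genes with the smallest p are named, at most 4, and further genes at 2-fold or more in a line were chosen after their values were seen. The genes and lists were chosen with earlier results of these data known. Alternatives were another pseudocount, no filter or a higher one, other scalings, no trend, no block, no DMS114, and leaving out each line. Promoter windows are RefSeq's on GRCh38.p14, a build other than that of the tables, and served for sequence only.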

Additional observations from a re-analysis of the deposited data

Results flagged for a closer look

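Of 111 groups of 4 or 10 lines looked at, 1 held a sample far from the others, while chance flags about 1 in 20. The log2 ratio of HSPA5, the main ER chaperone, was 1.06 in NCI-H211 with sgPOU2F3 against sgNeg, while the other 3 knockout lines lay between -0.31 and -0.10. In NCI-H211 POU2F3 also differed most (21.3 FPKM with sgPOU2F3 and 307 FPKM with sgNeg). The part of the POU2F3 level in the HSPA5 value was not tested.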

How the results depend on the processing

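No gene of the list was called across the knockout lines or between parental lines under any alternative run. In the knockout, 2 of all genes were called higher, and 0 with a pseudocount of 0.1, without a filter, without the variance trend or without any 1 line, and 1 after quantile normalization. With no replicate block, 0 genes were called, 18 were higher and 22 lower at an unadjusted p under 0.05 (579 and 877 with the block), and of the list 0 and 0 (3 and 6). Genes of the list that were lower at an unadjusted p under 0.05 numbered 2 without a filter and 3 after quantile normalization. Leaving out each line in turn, such genes of the list ran from 2 to 8 lower (2 without COR-L311, 3 without NCI-H1048) and from 1 to 6 higher (1 without NCI-H211 or NCI-H526, 6 without COR-L311). Over all genes they ran from 550 to 843 lower and 368 to 489 higher. Between day 4 and day 5 lines, calls ran from 0 to 278 genes higher and 0 to 210 lower, the highest without NCI-H1048, and from 0 to 1 of the list, that 1 being HSPA5. These leave-outs were chosen after seeing the data. Between parental lines, 28 genes were called higher, with 18 to 42 over the leave-outs. The 5 called lower became 13 with a pseudocount of 0.1, 3 without a filter, 18 without DMS114, and 3 to 11 over the leave-outs. Of 37 mean knockout ratios, 15 changed sign under some setting and 22 kept it. The 4 lines with 1 combined value each limit what can pass the threshold.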
